A study of Mus musculus with 39 samples.

Results

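The genes described here are 10 contractile and calcium-handling genes that tell fast from slow muscle fibres: the myosin heavy chains Myh1, Myh2, Myh4 and Myh7, the troponins Tnnt1, Tnnt3, Tnni1 and Tnni2, and the calcium pumps Atp2a1 and Atp2a2. They were picked by symbol, as 10 of the 46078 genes listed across 39 count files, and all 10 were found. Their levels were followed in quadriceps of male C57BL/6 mice on chow that had drunk dexamethasone (Dex), a synthetic glucocorticoid, at 10 µg/ml for 3 weeks, in 3 mice lacking E47 in the whole body (E47-/-, E47KO) and 2 wild-type mice (E47+/+, WT). The same genes were read in epididymal white adipose tissue (WAT, 2 E47KO and 2 WT) and liver (3 and 2) after the same treatment, where they are read at low levels. They were also read in liver after 3 weeks of corticosterone (Cort) at 100 µg/ml in the drinking water (4 and 4), and in untreated liver (6 E47KO and 5 WT). A last set was liver taken 1 h after Dex was injected at 1 mg/kg, from 3 Albcre/+;E47fl/fl mice, in which the albumin promoter drives Cre in hepatocytes, and 3 controls, of which 2 were Alb+/+;E47fl/fl and 1 was Alb+/+;E47fl/+. Mice given a glucocorticoid for 3 weeks were sacrificed after a glucose tolerance test, and every 3-week group, WT included, had received the hormone, so no untreated muscle was there to compare with.

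Skeletal muscle is a mosaic of fibres. Slow type I fibres carry the heavy chain Myh7 together with the slow troponins T and I (Tnnt1, Tnni1) and the pump SERCA2 (Atp2a2), contract slowly and resist fatigue, whereas the fast fibres of types IIA, IIX and IIB carry Myh2, Myh1 and Myh4 in that order of increasing speed, with the fast troponins (Tnnt3, Tnni2) and SERCA1 (Atp2a1). The heavy chain is the motor that splits ATP, the troponin complex makes the thin filament sensitive to calcium, and SERCA pumps return calcium to the sarcoplasmic reticulum so that the fibre can relax. Mouse quadriceps is mostly a fast muscle, long glucocorticoid exposure is known to wear down fast fibres in particular, and Myh7 and Atp2a2 are also the heart's forms.

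Libraries held 15.5 to 54.6 mega-counts in genes, and 40.4 to 46.0 mega-counts in quadriceps. Values are given as CPM, a gene's count divided by the library total in mega-counts, with totals scaled by TMM factors. Tcf3, the gene that encodes E47, read 9.04 to 11.7 CPM in E47KO and 9.20 to 9.98 CPM in WT quadriceps, and since gene counts also hold the other splice product of that gene, they check no label. Hepatocyte markers were 10 of 10 lower in quadriceps than in liver and adipocyte markers 10 of 10 lower than in WAT, so these libraries carry the markers of their labelled tissues in the right order. All epididymis markers (6 of 6) and 4 of 6 heart markers stayed under 1 CPM in every quadriceps library. In bulk tissue, fewer cells of a type and less RNA per cell cannot be told apart.

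The members fall into closely related gene pairs and clusters, which matters for how well reads tell them apart. In the mouse build mm10, Myh2 (chr11:67171027-67197517), Myh1 (chr11:67200052-67224575) and Myh4 (chr11:67238029-67260446) lie side by side on the plus strand, while Myh7 is at chr14:54970684-54994626 on the minus strand. The fast troponins Tnni2 (chr7:142441808-142444410) and Tnnt3 (chr7:142498836-142516009) are also near neighbours, with Tnnt1 at chr7:4504570-4516382, Tnni1 at chr1:135779434-135810989, Atp2a1 at chr7:126445858-126463108 and Atp2a2 at chr5:122453513-122502225. Across the aligned coding sequence, identity was 91.1% between Myh1 and Myh2, 90.2% between Myh1 and Myh4 and 88.2% between Myh2 and Myh4, against 77.6% between Myh4 and Myh7. The troponin pairs were 69.9% (Tnnt1 and Tnnt3) and 69.1% (Tnni1 and Tnni2) identical and the pumps 74.9%. The first coding windows of 60 bases below are shown because the 3 fast chains are identical there and only the slow chain differs. They lie within 1 exon each, and Myh1 (chr11:67206531-67206590) and Myh2 (chr11:67179553-67179612) carry the same letters as Myh4 (chr11:67245718-67245777, plus strand). Capitals mark the 13 bases at which Myh7 (chr14:54988811-54988870, minus strand) differs from Myh4.
Myh4: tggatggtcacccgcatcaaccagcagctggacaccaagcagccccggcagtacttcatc
Myh7: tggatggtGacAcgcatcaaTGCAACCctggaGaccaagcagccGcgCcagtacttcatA

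The next set, also of 60 bases, shows the opposite case, the stretch where the fast chains differ most among themselves.
It spans 2 exons in each gene, and 24 of its positions differ among the 3 fast chains. Capitals mark bases that differ from Myh4, 19 in Myh1, 16 in Myh2 and 20 in Myh7, whose own letters are given last.
Myh4: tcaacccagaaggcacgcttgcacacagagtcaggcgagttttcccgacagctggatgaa
Myh1: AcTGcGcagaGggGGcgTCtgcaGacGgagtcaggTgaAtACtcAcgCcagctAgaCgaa
Myh2: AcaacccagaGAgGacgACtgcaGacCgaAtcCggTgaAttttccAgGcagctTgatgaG
Myh7: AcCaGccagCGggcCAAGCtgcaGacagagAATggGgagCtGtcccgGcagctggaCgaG

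A read that falls in the first window cannot be assigned to a single fast heavy chain, and 1 from the second can. Of all 50-base words of the coding sequence, 31.6% in Myh1, 28.6% in Myh2 and 19.6% in Myh4 also occurred in another gene, as did 30.3% in Myh7, mainly in its heart neighbour Myh6, and none in the troponins. In the pumps the share was 13.8% for Atp2a1, with Rabep2 and Atp2a3, and 7.82% for Atp2a2. The values of the fast chains among themselves, and of Myh7 against Myh6, therefore depend on how shared reads were handled. Exons of other genes, on either strand, overlap 21.9% of the exon bases of Atp2a1 (by Rabep2) and 13.3% of those of Myh7. In Myh1, Myh2 and Atp2a2 the overlap is 8.11, 3.32 and 1.36%, and Myh4 and the troponins have none.

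E47 is a basic helix-loop-helix protein of the class that binds the E-box, CANNTG, with muscle partners such as MyoD and myogenin. RefSeq start sites (GRCm38.p6) were at hand for 7 of the 10 genes, Myh1, Myh2, Myh4, Myh7, Tnnt1, Tnni1 and Atp2a1. The 250 bases before the start are shown for the major fast heavy chain, the slow heavy chain and the slow troponin I, with E-boxes in capitals, at chr11:67237562-67237811 (plus strand), chr14:54994627-54994876 (minus strand) and chr1:135799171-135799420 (plus strand).
Myh4: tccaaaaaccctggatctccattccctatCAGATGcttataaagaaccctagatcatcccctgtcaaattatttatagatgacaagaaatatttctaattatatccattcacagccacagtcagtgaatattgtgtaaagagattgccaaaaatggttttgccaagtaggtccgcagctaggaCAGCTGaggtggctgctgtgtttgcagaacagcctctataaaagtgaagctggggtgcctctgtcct
Myh7: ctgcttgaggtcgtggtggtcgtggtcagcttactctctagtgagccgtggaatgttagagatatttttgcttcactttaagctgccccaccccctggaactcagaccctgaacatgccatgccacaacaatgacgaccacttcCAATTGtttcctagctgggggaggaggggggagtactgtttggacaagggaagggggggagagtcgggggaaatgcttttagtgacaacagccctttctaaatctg
Tnni1: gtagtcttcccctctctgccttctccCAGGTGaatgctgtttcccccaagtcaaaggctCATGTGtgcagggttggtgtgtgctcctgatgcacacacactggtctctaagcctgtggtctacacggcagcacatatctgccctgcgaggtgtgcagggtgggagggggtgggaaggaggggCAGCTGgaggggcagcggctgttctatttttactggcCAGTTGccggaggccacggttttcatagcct

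The window of Myh4 held 2 E-boxes, that of Myh7 held 1 and that of Tnni1 held 4. Myh7 and Tnni1 also have a second start site, whose window overlaps the one shown. It held 2 for Myh7, the CAATTG above among them, and 2 for Tnni1, the CAGCTG and CAGTTG above. The windows of Tnnt1 and Atp2a1 held 1 each and Myh1 and Myh2 held 0. CANNTG reads the same on both strands, and 66.2% of 32851 windows of this length hold at least 1 match. ACANNNTGT, the core of a glucocorticoid response element, which also reads the same on both strands, was in none of the 7 windows and in 5.84% of all windows. These matches describe letters only.

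In quadriceps the fast genes made up nearly all of the signal. Per kilobase of exon, mean levels over the 5 libraries ran from Myh4 (12605 CPM/kb), Tnnt3 (11947 CPM/kb), Atp2a1 (10317 CPM/kb) and Tnni2 (5501 CPM/kb) through Myh1 (1290 CPM/kb) and Myh2 (336 CPM/kb) down to the slow genes Atp2a2 (27.5 CPM/kb), Myh7 (22.4 CPM/kb), Tnnt1 (20.6 CPM/kb) and Tnni1 (8.61 CPM/kb). The fast genes other than Myh2 varied less between mice than Myh2 and the slow genes. The highest library exceeded the lowest 1.24-fold for Atp2a1, 1.29-fold for Tnnt3, 1.31-fold for Tnni2, 1.69-fold for Myh1 and 1.94-fold for Myh4. The same ratio was 5.87 for Myh2, 7.83 for Atp2a2, 19.7 for Tnnt1, 40.4 for Tnni1 and 169 for Myh7. Neighbours in the order of levels, such as Atp2a2, Myh7 and Tnnt1, differed by less than this spread.

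Loss of E47 was compared with WT in these 5 libraries, and no fibre gene passed the test. Myh4, the type IIB motor, read 76989, 66464 and 81841 CPM in E47KO and 52420 and 101461 CPM in WT. The WT libraries were both the lowest and the highest of the 5, and the log2 difference of E47KO minus WT was -0.04 (SE 0.28, edgeR quasi-likelihood, adjusted p = 1.00). Myh1, the type IIX motor, read 9680, 9488 and 7413 CPM against 8672 and 5722 CPM (log2 difference 0.30, SE 0.22). Myh2, the type IIA motor, read 3946, 3412 and 1189 CPM against 2764 and 673 CPM (0.73, SE 0.69). In both genes each genotype held high and low libraries and the groups overlapped.

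The slow motor Myh7 read 286, 234 and 2.41 CPM in E47KO and 406 and 37.3 CPM in WT. E47KO replicate 3 was lowest by far, with 109 counts, and WT replicate 1 highest, so that the log2 difference of -0.35 had an SE of 1.54. The slow troponin T, Tnnt1, read 65.5, 53.4 and 4.69 CPM against 92.5 and 10.5 CPM, and the slow troponin I, Tnni1, 44.8, 37.4 and 1.59 CPM against 64.3 and 6.79 CPM. Atp2a2 read 227, 226 and 36.4 CPM against 285 and 62.1 CPM. All 4 slow genes ranked the 5 libraries in the same order, with E47KO replicate 3 and WT replicate 2 low and the other 3 high.

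Their fast counterparts varied less across the libraries, and E47KO replicate 3 and WT replicate 2 were the highest for each. Tnnt3 read 17614, 17003 and 20848 CPM in E47KO and 17239 and 21857 CPM in WT, Tnni2 read 7809, 7132 and 9215 CPM against 7658 and 9361 CPM, and Atp2a1 read 34004, 32810 and 38247 CPM against 33686 and 40616 CPM. Of the 10 genes, 0 passed an adjusted p of 0.05, 0 had an unadjusted p under 0.05, and all 10 overlapped between genotypes, beside 16.9% of all genes without overlap. Over all genes tested, 0.0134% passed (2 of 14962) and 3.94% had an unadjusted p under 0.05 (590). The median log2 difference of the 10 was -0.08, against 0.02 over all genes. The slow genes had an SE of 0.86 to 1.54 in this fit. It was 0.14 to 0.77 in the fit with a term for the animal number that is described further on. That term was taken from the values of these same genes, so the smaller SE cannot be read as a gain in precision.

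**Figure D1:**
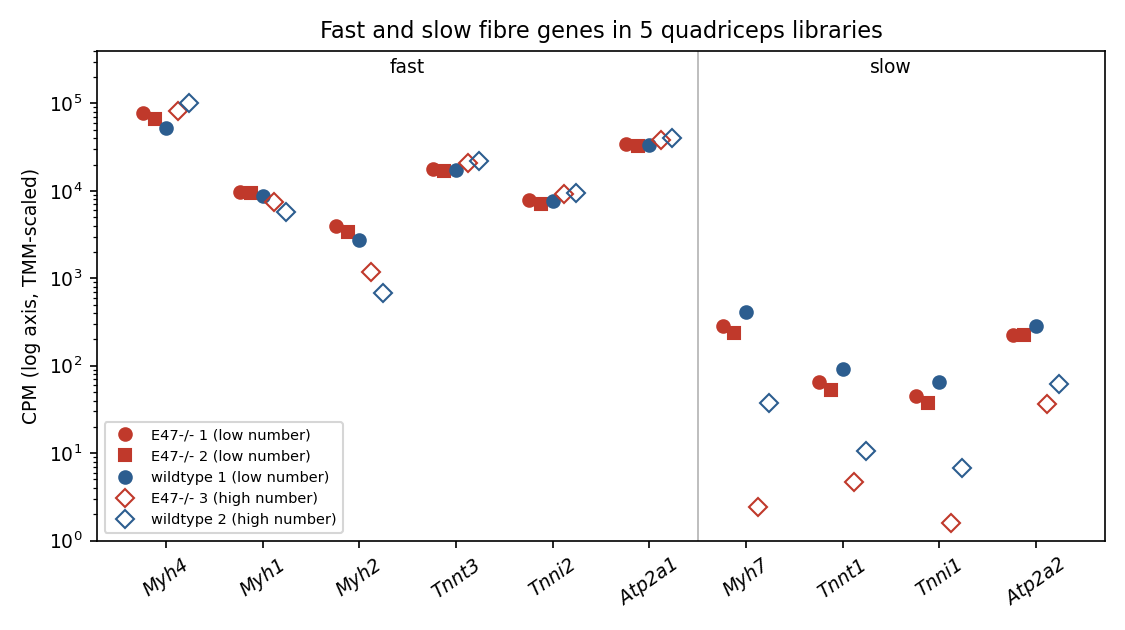
CPM of the 10 genes (log axis) in the 5 quadriceps libraries, 1 marker shape per library. Fast genes stay within 1.94-fold except Myh2, while Myh7 spans 169-fold, with E47KO replicate 3 and WT replicate 2 at the bottom of every slow gene.

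The make-up of the heavy chain mRNA pool was compared within each library, independent of scaling. As a share of heavy chain counts per kilobase, Myh4 took 85.8, 84.7 and 91.1% in E47KO and 82.9 and 94.4% in WT. Myh1 took 10.2, 11.4 and 7.81% against 13.0 and 5.04%, and Myh2 3.71, 3.66 and 1.12% against 3.68 and 0.528%. Myh7 was under 1% throughout, at 0.223, 0.208 and 0.00187% in E47KO and 0.448 and 0.0243% in WT. E47KO replicate 3 and WT replicate 2 held the most Myh4 and the least of each other chain.

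The slow-to-fast ratio was also taken within each protein. The log2 ratio of Tnnt1 to Tnnt3, per kilobase, was -8.55, -8.79 and -12.60 in E47KO and -8.02 and -11.49 in WT. For Tnni1 to Tnni2 it was -8.71, -8.84 and -13.77 against -8.16 and -11.69. For Atp2a2 to Atp2a1 it was -8.03, -7.99 and -10.84 against -7.69 and -10.16. The size of a ratio depends on the length used, which is all annotated exon bases, 3600 for Tnni1 and 1497 for Tnni2. With no division by length, Tnni1 to Tnni2 was -7.45, -7.57 and -12.50 in E47KO and -6.90 and -10.43 in WT. In each ratio the lowest library was E47KO replicate 3 and the highest WT replicate 1, with the genotypes overlapping. None of the 7 measures, 4 shares and 3 ratios, differed by genotype (exact two-sided permutation test over 10 arrangements, p = 0.6 or 0.8, adjusted 0.8), in a design that cannot give a p below 0.1.

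The libraries divided instead by the animal number that the deposited records carry. Low numbers belong to E47KO replicates 1 and 2 and WT replicate 1, and high numbers to E47KO replicate 3 and WT replicate 2. What the numbers mean is not stated, and this division was seen in the values, so it is described with no test. All 10 fibre genes were without overlap between the 2 number ranges, 6 higher and 4 lower in the low numbers, where 24.7% of all genes did not overlap (12.7% higher and 12.0% lower). The mean in the low numbers over that in the high numbers was 15.5 for Myh7, 11.7 for Tnni1, 9.25 for Tnnt1, 5.0 for Atp2a2, 3.62 for Myh2 and 1.41 for Myh1. It was 0.712 for Myh4, 0.810 for Tnnt3, 0.811 for Tnni2 and 0.850 for Atp2a1. The 4 slow genes and the 2 fast chains of the less fast fibre types were thus on the high side, and Myh4 with the fast troponins and pump on the low side.

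Other genes known from slow and fast fibres divided the same way. Of 16 slow partners, 14 were higher in the low numbers without overlap and 0 lower, beside 12.7 and 12.0% of all genes. Their median log2 ratio was 1.18. Among the 4 most abundant, myoglobin (Mb), the oxygen store, read 1883, 2197 and 1774 CPM in the 3 low-number mice (E47KO 1, E47KO 2 and WT 1 in this order, here and below) against 1080 and 818 CPM in the 2 high-number mice (E47KO 3 and WT 2), and Mybpc1, slow myosin-binding protein C, 2502, 2572 and 2684 CPM against 2085 and 1827 CPM. Ckmt2, the mitochondrial creatine kinase, was also on the high side, and the fatty acid transporter Cd36 overlapped. Named after their values were seen, the slow regulatory light chain Myl2 read 107, 88.6 and 133 CPM against 11.4 and 15.04 CPM and slow troponin C (Tnnc1) 45.8, 34.5 and 62.6 CPM against 1.72 and 6.87 CPM.

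Of 16 fast partners, 12 were lower in the low numbers without overlap and 0 higher, beside 12.0 and 12.7% of all genes. Their median was -0.34. Actn3, fast alpha-actinin, read 12589, 10625 and 13408 CPM in the low numbers against 16090 and 14161 CPM, and Mylpf, the fast regulatory light chain, 6055, 5715 and 6839 CPM against 8048 and 8214 CPM. Mybpc2 and the glycogen phosphorylase Pygm were on the same side. Fast troponin C, Tnnc2, read only 0.240 to 0.622 CPM, and 74.0% of its exon bases overlap Ube2c, so its count cannot be read as its level. The list of 16 shared sarcomere genes holds Myom2, Ryr1, Cacna1s, Ampd1 and Cox6a2 among others, and its balance between fibre types was not tested. In it 1 gene was higher and 4 were lower, beside the same shares of all genes, with 11 overlapping and a median of -0.02. Skeletal actin, Acta1, read 24561, 27694 and 29036 CPM in the low numbers against 29805 and 36080 CPM, and creatine kinase, Ckm, 8409, 8246 and 7840 CPM against 10114 and 11411 CPM, both lower without overlap, while the giant proteins titin (Ttn) and nebulin (Neb) overlapped. The median over all genes was 0.01. The lists were written with earlier results of these data known, so these counts are a description.

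Within each number range the slow genes of E47KO were below WT. In the low range the mean of E47KO 1 and 2 was 0.641 of WT 1 for Myh7, 0.643 for Tnnt1, 0.639 for Tnni1 and 0.797 for Atp2a2. In the high range E47KO 3 had 0.0645 of WT 2 for Myh7, 0.444 for Tnnt1, 0.234 for Tnni1 and 0.586 for Atp2a2. Myh2 ran the other way, at 1.33 and 1.77, and so did Myh1, at 1.11 and 1.30, while Myh4 was 1.37 in the low range and 0.807 in the high range. Each range holds 1 WT mouse, so these are ratios to single animals.

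With the number range as a term in the edgeR quasi-likelihood fit, an alternative added after seeing the data, the log2 difference was -2.0 for Myh7 (SE 0.77), -1.17 for Tnni1 (SE 0.32), -0.85 for Tnnt1 (SE 0.17), -0.52 for Atp2a2 (SE 0.14) and 0.59 for Myh2 (SE 0.15). The other members lay between -0.04 and 0.24. Of the 10, 5 had an unadjusted p under 0.05, Myh7, Tnni1, Tnnt1, Atp2a2 and Myh2, beside 3.81% of all genes. The term was taken from the values of these same genes, and the 4 slow genes ranked the 5 libraries in the same order. These p-values and SEs are therefore not separate results. The count of p-values cannot be read against the share of all genes as a genotype effect. After Benjamini-Hochberg adjustment over all genes none of the 10 passed, with an edgeR adjusted p of 1.00 for Myh7, 0.75 for Tnni1, 0.46 for Tnnt1, 0.71 for Atp2a2 and 0.65 for Myh2.

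**Figure D2:**
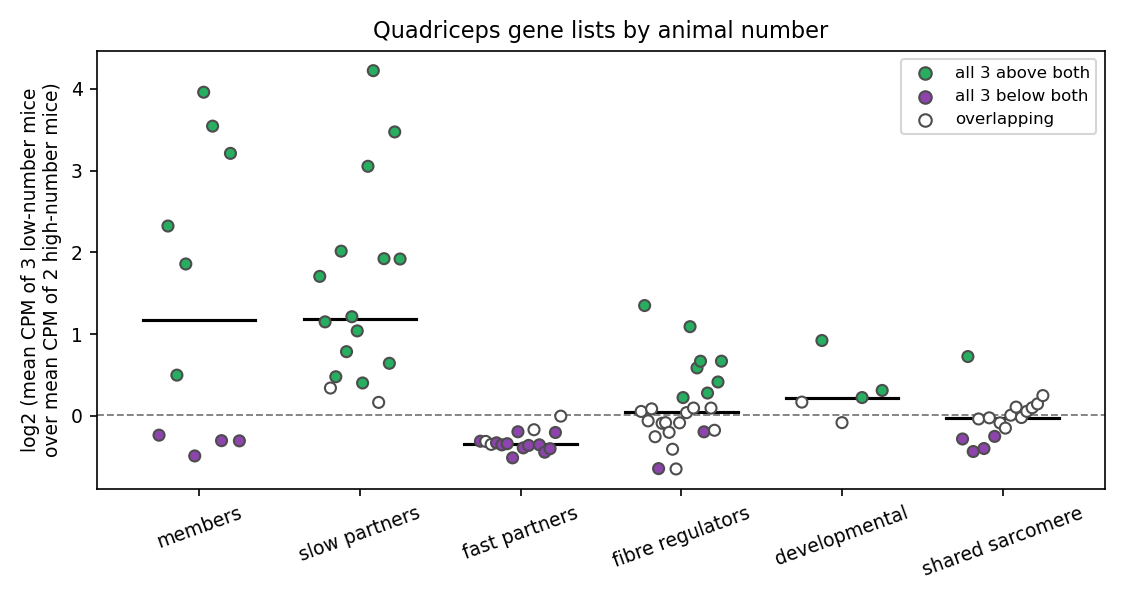
Log2 ratio of mean quadriceps CPM in the 3 low-number mice to that in the 2 high-number mice, 1 point per gene, by gene list. Slow partners centre on 1.18, fast partners on -0.34 and the list of shared sarcomere genes on -0.02.

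By genotype, the other fibre gene lists gave no calls either. Of the fast partners 0 of 16, of the slow partners 0 of 16, of the shared sarcomere genes 0 of 16, of 24 fibre type regulators 0, and of the developmental genes 0 of 5 tested passed in edgeR. Median log2 differences of E47KO minus WT were -0.09, 0.31, -0.03, 0.02 and 0.04 in that order. Cd36 was the 1 slow partner with an unadjusted p under 0.05, at 615, 483 and 454 CPM in E47KO and 380 and 324 CPM in WT (edgeR log2 difference 0.55, SE 0.17, adjusted p = 1.00).

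Myod1 and Myog, the muscle factors that pair with E proteins, were named after their values were seen. Myod1 read 11.1, 10.4 and 22.6 CPM in E47KO and 13.9 and 8.69 CPM in WT, and Myog 4.15, 5.66 and 11.9 CPM against 7.30 and 5.95 CPM. E47KO replicate 3 was highest for both, and the other 4 libraries overlapped. The most abundant regulators by the naming rule, Mef2c, Mef2d, Tbx15 and Maf, overlapped between the number ranges. Of all 24 regulators, 8 were higher and 2 lower in the low numbers without overlap, beside 12.7 and 12.0% of all genes. The embryonic and perinatal heavy chains Myh3 and Myh8, known from regenerating fibres, were low. Myh3 read 3.73, 4.07 and 4.02 CPM in the low numbers against 2.21 and 1.95 CPM, without overlap, and Myh8 overlapped at 6.34 to 7.84 CPM. Of the 5 developmental genes tested 3 were higher in the low numbers and 0 lower, beside the same shares of all genes. Among the 3 was the adhesion molecule Ncam1, at 5.17, 6.40 and 6.67 CPM against 4.66 and 5.14 CPM, while the acetylcholine receptor subunit Chrna1 overlapped.

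Among markers of other cells, adipocyte markers divided the quadriceps libraries by genotype and hepatocyte markers by animal number. All 10 adipocyte and all 6 smooth muscle markers overlapped between the number ranges. Adipocyte markers summed to 1096 to 1369 CPM in E47KO and 655 to 745 CPM in WT, and 9 of 10 were higher in E47KO without overlap, beside 9.5% of all genes. Adiponectin (Adipoq) read 47.8, 57.9 and 65.6 CPM in E47KO and 5.05 and 19.4 CPM in WT (log2 difference 2.23, SE 0.53, edgeR adjusted p = 0.67), and the lowest adjusted p in the list was 0.34. Cd36 is expressed in fat as well as in slow fibres. Hepatocyte markers summed to 2.06 to 15 CPM in E47KO and 2.03 to 221 CPM in WT. Of 9 tested, 8 were lower in the low numbers without overlap, beside 12.0% of all genes. Albumin (Alb) was 0.597, 0.784 and 1.11 CPM in the low-number mice against 7.07 and 129 CPM in the high-number mice. Heart markers summed to 8.53 to 12.9 CPM and 6.30 to 10.7 CPM in E47KO and WT. The part of other cells in the fibre gene values was not tested.

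Against liver from the same treatment, muscle stood apart in 9 of the 10 genes. The test passed 76.4% of all genes in either direction and 40.4% higher in muscle, so the size of the difference carries more than the call. The median log2 difference of the 10 was 11.67 (0.11 over all genes tested). Among the heavy chains it ran from 15.23 for Myh4 over 12.83 for Myh1 and 10.50 for Myh2 to 7.83 for the slow chain Myh7 (SE 1.37, edgeR adjusted p = 1.96e-04). The fast members of the other pairs followed Myh4, with 14.33 for Atp2a1, 13.99 for Tnnt3 and 13.45 for Tnni2. Tnni1, with 0 to 9 counts in the livers, differed by 7.38 (adjusted p = 8.88e-05) and Tnnt1 by 5.57 (adjusted p = 6.30e-05).

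Atp2a2, whose pump SERCA2 is found in most tissues, was the exception. It read 36.4 to 285 CPM in muscle and 248 to 328 CPM in liver after Dex, a log2 difference of -0.84 (SE 0.45, adjusted p = 0.11). Livers of the other experiments had 242 to 472 CPM after Cort, 282 to 420 CPM 1 h after Dex and 121 to 217 CPM without treatment. WAT had 116 to 130 CPM. Without WT muscle replicate 1 the difference from liver was -1.55 and passed (adjusted p = 0.0098).

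Against WAT all 10 genes were higher in muscle, where 77.3% of all genes passed and 33.8% were higher, with a median log2 difference of 13.61 (-0.25 over all genes), or 13.88 over the 8 genes without Myh7 and Tnni1. Atp2a1 differed by 14.59, Myh4 by 14.39 and Tnnt1 by 6.72. Atp2a2 differed by 1.26 (SE 0.48, adjusted p = 0.031), a call that was lost under several alternatives, among them leaving out WT muscle replicate 1 (0.54, adjusted p = 0.28). Myh7 and Tnni1 had no more than 2 and 5 counts in any WAT library, so no fold against WAT is given for them. WAT and liver differed in 2 of the 10 genes, beside 75.4% of all genes. Myh2 was lower in WAT by a log2 difference of -3.44 (SE 0.74, adjusted p = 0.0011) and Atp2a2 by -2.10 (SE 0.50, adjusted p = 0.0021). The Myh2 value rests on 5 to 12 counts per WAT library and 12 to 98 per liver. The liver median was 0.957 CPM and the highest liver 4.42 CPM, and the source of these reads was not tested.

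Tissues were compared in a joint fit of the 14 Dex libraries, which took the libraries of the 3 mice that gave both liver and quadriceps as independent. The fast and slow partners were counted in the same fit. Of 16 fast partners 15 were higher in muscle than in liver and 16 higher than in WAT, beside 40.4 and 33.8% of all genes. Of 16 slow partners 15 were higher than in liver, and against WAT 13 were higher and 1 lower, where 43.5% of all genes were lower. All 16 shared sarcomere genes were higher against both.

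Genotype had no detected effect on these genes outside muscle. In WAT 8 of the 10 passed the filter on low counts and 0 were called (0.0% of all genes, 0 of 16289). Tnnt1 was higher and Tnni2 lower in E47KO without overlap, as were 33.0% of all genes in 1 direction or the other with 2 mice a side. In liver after 3 weeks of Dex 9 passed the filter and 0 were called, where 0.00752% of all genes were. Myh1 alone had an unadjusted p under 0.05 (0.044) and did not overlap, beside 3.08 and 15.1% of all genes, with 0.797, 2.01 and 2.34 CPM in E47KO against 0.682 and 0.713 CPM in WT (log2 difference 1.30, SE 0.53, edgeR adjusted p = 0.999). In liver after Cort 8 passed the filter with 0 called, beside 0.0274% of all genes, and in untreated liver 10 with 0 called, beside 0.0288%. In the liver 1 h after Dex only Tnnt1 and Atp2a2 passed the filter, and 0 were called, as were 0.0% of all genes. Where a comparison called 0 of all genes, DESeq2 called 38 in WAT and 4 at 1 h, and 699 and 466 genes had an unadjusted p under 0.05 in edgeR.

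The difference between genotype effects was tested in the same joint fit, with the same assumption of independence. None of the 10 genes differed between muscle and WAT, where 0.011% of all genes passed, nor between muscle and liver, where 0.0% passed (0 genes in edgeR with 834 at an unadjusted p under 0.05, and 38 in DESeq2).

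Outside muscle most fibre genes were read at low and uneven levels, called traces here, whose source was not tested. A trace index was formed as the summed CPM of 8 genes, leaving out Atp2a2 and Tnnt1, which had counts in every liver. In quadriceps the index averaged 149671 CPM. It was at least 10 CPM in 19 of the 34 liver and WAT libraries. In WAT it was 10.6 to 16.4 CPM in all 4 libraries, or 0.00708 to 0.0110% of the quadriceps mean, and in liver after Dex 5.53 to 17.2 CPM. In liver 1 h after Dex it never exceeded 1.09 CPM, and Myh4, Myh7 and Tnni1 had 0 counts in all 6 libraries, which allows a level of up to 0.164 to 0.195 CPM for each (3 counts, counting error only).

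In liver after Cort the index took only 2 levels. E47KO replicates 3 and 4 and WT replicates 2, 3 and 4 held 123 to 169 CPM, and E47KO replicates 1 and 2 and WT replicate 1 held 0.137 to 0.191 CPM. The high 5 carry the 5 highest animal numbers of this experiment and the low 3 the lowest. Both genotypes are in each set. Myh4 read 48.6 to 71.5 CPM in the 5, Myh1 18.8 to 25.3 CPM, Atp2a1 23.6 to 30.9 CPM, Tnnt3 19.7 to 25.4 CPM, Tnni2 7.24 to 9.61 CPM and Myh2 3.69 to 5.72 CPM. The 3 low livers had 0 counts of all 4 heavy chains, which allows up to 0.0637 to 0.0761 CPM each. Tnnt1, at 0.567 to 1.42 CPM in the 5 and 0.777 to 1.27 CPM in the 3, did not follow the others.

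Untreated livers also divided by a number, here the library number in their titles. E47KO replicate 1 and WT replicates 1 and 2, which have the lowest numbers, had an index of 0.200 to 0.542 CPM. The other 8 livers ran from 16.1 CPM in E47KO replicate 3 to 240 CPM in E47KO replicate 2 and 303 CPM in WT replicate 4, the last being 0.202% of the quadriceps mean. The slow genes took part in these. Myh7 read 2.47 to 12.4 CPM in the 8 and Tnni1 0.337 to 2.60 CPM, and Tnnt1 read 1.58 to 5.18 CPM against 0.688 to 1.15 CPM in the low 3. Of the 19 libraries at 10 CPM or more, both genotypes were thus present in WAT, Cort and untreated liver, while the 2 livers after 3 weeks of Dex (14.1 and 17.2 CPM) were both E47KO, against 6.68 and 7.67 CPM in WT and 5.53 CPM in the third E47KO liver.

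**Figure D3:**
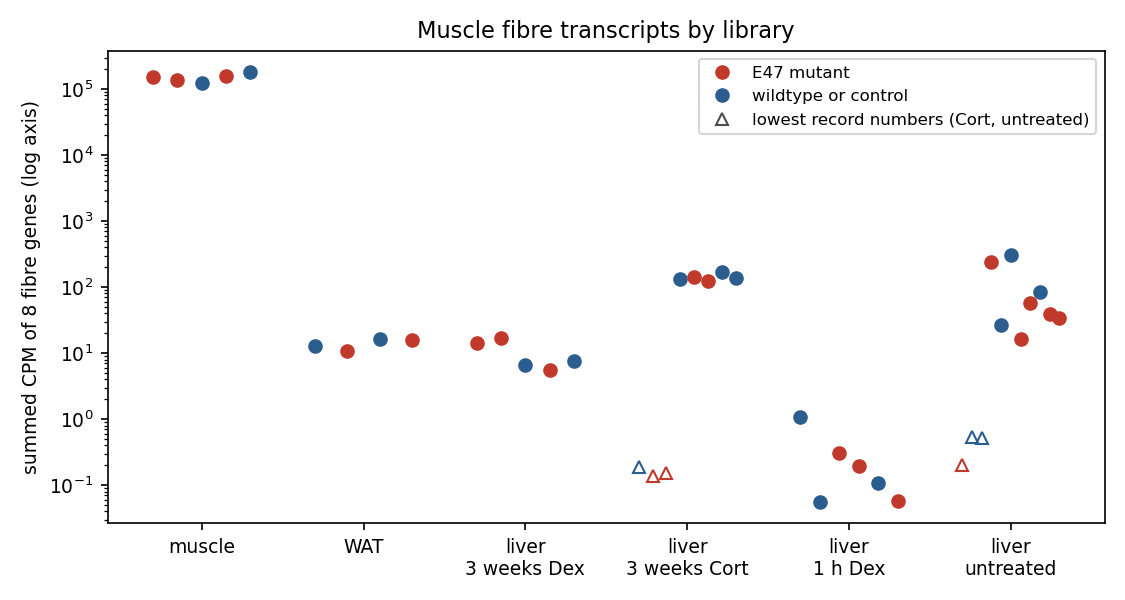
Summed CPM of the 8 trace genes (log axis) in each library by experiment and genotype. Triangles mark the Cort livers with the lowest animal numbers and the untreated livers with the lowest library numbers. Cort livers lie at 0.137 to 0.191 or 123 to 169 CPM with nothing between, and untreated livers run from 0.200 to 303 CPM.

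The traces differed in which heavy chains they held. Among libraries with at least 100 heavy chain counts, WAT resembled quadriceps most, with 77.9 to 80.5% Myh4 per kilobase, 17.0 to 19.0% Myh1, 1.73 to 2.99% Myh2 and 0 to 0.413% Myh7. The 5 Cort livers were close to each other, with 67.9 to 71.4% Myh4, 23.9 to 27% Myh1, 4.03 to 4.94% Myh2 and 0.0859 to 0.133% Myh7. The untreated livers were unlike each other and held more of the slower chains. Their shares of Myh4 ran from 0.797 to 52.5%, of Myh1 from 5.48 to 56.6%, of Myh2 from 21.7 to 47.5% and of Myh7 from 5.60 to 41.5%.

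Single untreated livers show how far the mixtures lay apart. WT replicate 4, with the highest index, held 56.6% Myh1, 36.1% Myh2, 6.50% Myh7 and only 0.797% Myh4. E47KO replicate 2 held 44.7% Myh1, 25.2% Myh2 and 24.5% Myh4. E47KO replicate 3, with the lowest index of the 8, held 47.5% Myh2, 41.5% Myh7 and 5.49% Myh4. All 3 lay below the 82.9 to 94.4% Myh4 of quadriceps.

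For 3 mice, E47KO 1 and 2 and WT 1, the records give the same animal number for liver and quadriceps after Dex, and 2 of these livers had enough counts to compare. The liver of E47KO 1 held 62.5% Myh4, 25.4% Myh1, 10.8% Myh2 and 1.34% Myh7, where its own quadriceps held 85.8% Myh4. The liver of E47KO 2 held 6.94% Myh4, 41% Myh2 and 27.7% Myh7, where its own quadriceps held 84.7% Myh4. As a share of raw heavy chain counts, Myh4 was 60.1% in the liver of E47KO 1 (exact binomial 95% interval 52.2 to 67.7%, of 163 counts) and 5.74% in that of E47KO 2 (3.17 to 9.44%, of 244 counts). Both intervals lie below the quadriceps of the same mouse, at 84.7 and 83.5% of raw counts. The intervals cover counting error only.

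**Figure D4:**
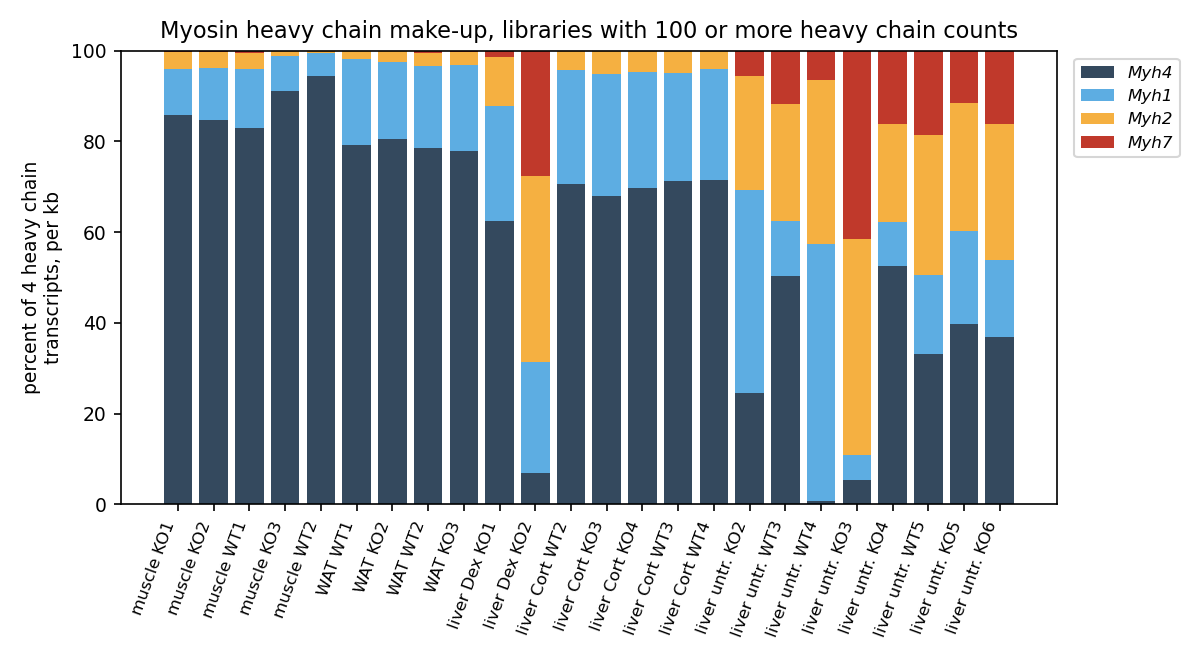
Share of the 4 heavy chains (percent of heavy chain counts per kilobase) in each library with at least 100 such counts. Quadriceps, WAT and the 5 Cort livers are mostly Myh4, whereas untreated livers and the liver of E47KO 2 after Dex hold up to 47.5% Myh2 and 41.5% Myh7.

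The heart's own heavy chain separated the Cort livers from all others. Myh6, which adult mouse heart muscle makes, read 7.36 to 9.71 CPM in the 5 Cort livers with a trace, 0 CPM in the other 3, at most 0.191 CPM in any other liver and 0 CPM in WAT. In quadriceps it read 3.75 to 8.89 CPM. Heart markers summed to 11.4 to 15.3 CPM in the 5 against 0.574 to 0.964 CPM in the 3. Cardiac troponin T (Tnnt2) was 1.75 to 2.79 CPM against 0.340 to 0.837 CPM, and cardiac troponin I (Tnni3) 0.960 to 1.30 CPM against 0.0254 to 0.114 CPM. Nppa, the atrial peptide, was at 0 counts in all 8, and Myh7, which shares much of its sequence with Myh6, was at 0.0942 to 0.191 CPM in the 5.

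**Figure D5:**
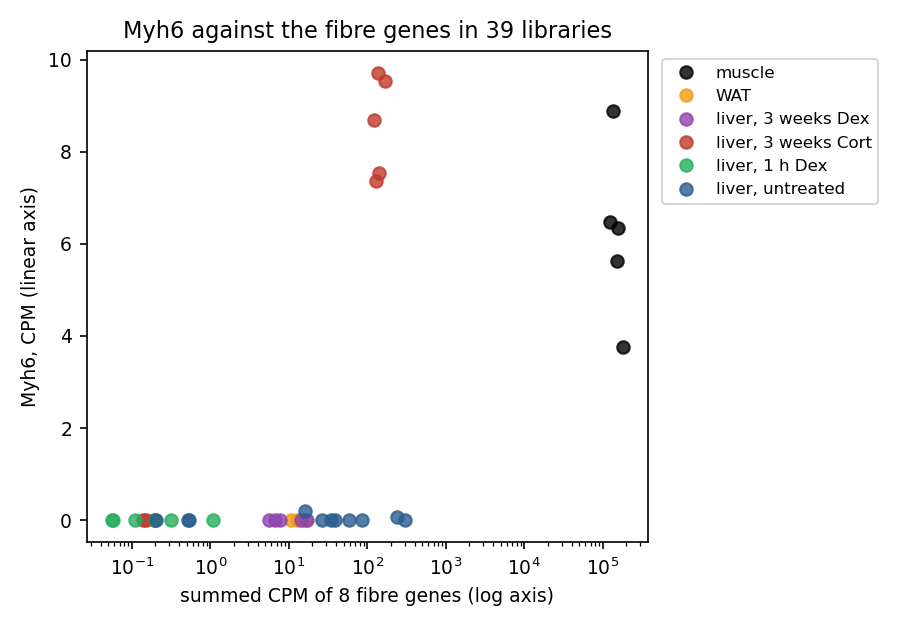
Myh6 CPM (linear axis) against the trace index (CPM, log axis) in all 39 libraries. The 5 Cort livers with a trace lie at 7.36 to 9.71 CPM of Myh6, while untreated livers with an equal or higher index stay at or under 0.191 CPM.

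The genes most like the trace index across livers were other muscle genes. Over 30 liver libraries, several of which share an experiment and a library preparation, high Pearson correlations of log2 levels with the log2 index among genes outside the lists were 0.963 for Cmya5, 0.952 for Eef1a2 (the elongation factor form of muscle and nerve), 0.948 for Trdn (triadin) and 0.944 for Hrc. Others were 3425401B19Rik (0.943), Mylk4 (0.942), Nrap (0.940), Hspb7 (0.919) and Txlnb (0.910). Triadin and the histidine-rich calcium-binding protein Hrc belong to the calcium store that SERCA1 fills. In liver Cmya5 reached 20.5 CPM, against a mean of 3256 CPM in quadriceps. These correlations describe libraries that fall into sets with and without a trace.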

How the data were processed

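Poly(A) RNA was sequenced in 39 libraries, and the authors mapped the reads to mm10 with the Ensembl annotation. The deposited values are raw counts of reads per gene, 1 file per library, not normalized and not pooled. The submitters' processing notes name STAR 2.4.2a, HTSeq and DESeq2. Libraries of the 3-weeks-Dex tissues are labelled unstranded and the others stranded, but in the Cort livers the fuller strand column held 50.1% of the counts of both, against 96.9 to 97.7% at 1 h and untreated, so the Cort counts do not behave as stranded. Files of the former hold only an unstranded column, so the unstranded column was used throughout, and a gene and an antisense or overlapping gene cannot be told apart. Between 20.8 and 36.8% of entries named no gene and stayed out of library sizes and tests. RNA came from Qiazol in the 3-week experiments and from column kits in the 1 h livers, as the labels state. The authors' 6 tables of their own comparisons hold log2 fold changes, p-values and size-factor-scaled signals and were not used.

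Symbols came from GENCODE vM21 for 45229 of 46078 gene identifiers. Genotypes and tissues were compared with edgeR 4.0.16 (R 4.3.3, limma 3.58.1): TMM, filterByExpr with a minimum count of 10, quasi-likelihood F test, two-sided, Benjamini-Hochberg over all genes tested, threshold 0.05. Each genotype comparison was fitted on its own groups. Tissues and differences between genotype effects were fitted jointly over the 14 Dex libraries. CPM used TMM-scaled library sizes, correlations used log2 CPM with a prior count of 2, and shares used exact permutation tests (Python 3.11.15, scipy 1.17.1). Limits for 0 counts stand at 3 counts and cover counting error only. The scripts were tested on simulated data.

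All 10 members are named, with the 4 most abundant genes of each fibre list in muscle, any list gene past the threshold, and the 10 genes outside the lists most correlated with the trace index. Others are named as such where they appear. The members, the lists and this rule were chosen with earlier results of these data known. Alternatives were RLE factors, library totals, no filter on low counts, DESeq2 1.42.0, the strand column, the replicate number as a block, a joint fit and leaving out each library. After seeing the data, a term for the animal or library number range was added, as was leaving out the 2 untreated livers with the highest trace index. All replicate pairs differed by more than sampling noise. Replicates of a group are separate libraries, taken as separate mice, and p-values measure the spread between them, but 3 mice gave both liver and quadriceps after Dex, and the joint fit took these libraries as independent. A gene that the rule for likeness to the trace index names is not reported here.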

Additional observations from a re-analysis of the deposited data

Results flagged for a closer look

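The highest or lowest library of each group of 4 to 6 libraries was compared with the rest of its group by Dixon's gap ratio. This was done for the 10 genes and the trace index, in 44 tests in all. Chance alone passes about 1 in 20 such tests if values are normally distributed. The CPM values were not log-transformed here, so that rate may not hold for them. Most of the 14 results that passed were in 2 untreated livers, E47KO replicate 2 and WT replicate 4, and the values in 1 liver are not independent of each other.

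E47KO replicate 2 was far above the other 5 E47KO livers for Myh1 (53.9 CPM), Myh2 (34.1 CPM), Tnnt3 (44.7 CPM), Tnni2 (24 CPM), Atp2a1 (44.7 CPM) and the trace index (240 CPM). WT replicate 4 was as far above the other 4 WT livers, with 80 CPM of Myh1, 57.2 CPM of Myh2, 62 CPM of Tnnt3, 29.3 CPM of Tnni2, 57.9 CPM of Atp2a1 and an index of 303 CPM. Myh4, Myh7 and the slow troponins did not pass in either liver.

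In liver after Cort, Tnnt1 in E47KO replicate 3 (1.02 CPM) stood above the other 3 E47KO libraries. Tnni1 in E47KO replicate 2 (0.0254 CPM) rests on 1 count, against 0 counts in the other 3.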

How the results depend on the processing

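Across the alternatives, 0 of the 10 genes passed the genotype test in any tissue. The number of genes called in all did move. Without a filter on low counts it was 37 in muscle (2 in the reported fit), 6 in WAT (0), 62 in liver after Dex (1), 13 after Cort (4), 1 at 1 h (0), 8 in untreated liver (4), 35 for the difference of effects between muscle and WAT (2) and 12 between muscle and liver (0). DESeq2 called 90, 38, 25, 258, 4, 20, 47 and 38 in the same order. The joint fit called 14 in muscle. With the number range as a term, 4 were called in muscle and 67 after Cort. Without the 2 untreated livers with the highest trace index, 2 were called there. With the shared sarcomere genes as the index, 34 of 34 libraries reached 10 CPM in place of 19.

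With the replicate number as a block, 1 gene was called in muscle, 0 in liver after Dex, 29 after Cort, 2 in untreated liver and 0 for the difference of effects between muscle and WAT. In muscle the block turned the log2 difference of Myh7 to 1.06, Tnnt1 to 0.89, Tnni1 to 0.92 and Atp2a2 to 0.77. E47KO replicate 3, with no WT partner, carries no weight there. Samples share only a number: deviations of same-numbered libraries correlated at 0.23 and -0.13 in muscle, -0.06 and -0.48 in liver after Dex, -0.13 to 0.72 after Cort, 0.04 to 0.21 at 1 h and -0.03 to 0.75 untreated, so that in none of these did every pair exceed 0.1, nor did every library correlate best with its own number after Cort, at 1 h or untreated. In WAT alone no paired comparison of the genotypes was possible, because its groups share only 1 number.

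Other reversals were Myh4 in muscle with the number term (0.12), Atp2a2 in untreated liver with the library number term (-0.048) and, between WAT and liver, Tnnt3 with RLE factors (-0.012) and DESeq2 (-0.0047) and Myh1, Tnni2 and Atp2a1 with library totals (0.45, 0.40 and 0.53).

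Leaving out 1 library at a time gave 1 to 8 calls in muscle (8 without WT replicate 2), 0 to 333 in WAT (333 without E47KO replicate 3), 0 to 7 in liver after Dex (7 without WT replicate 1), 1 to 6 after Cort, 0 to 1 at 1 h and 3 to 4 untreated. For differences of effects it gave 0 to 17 (muscle minus WAT, 17 without WT muscle replicate 2) and 0 to 38 (muscle minus liver, 38 without WT muscle replicate 1). The slow genes in muscle were decided by single libraries. Log2 differences ran from -1.23 to 2.22 for Myh7, -1.18 to 1.97 for Tnnt1, -1.22 to 2.04 for Tnni1 and -0.81 to 1.40 for Atp2a2, each highest without WT replicate 1. They ran from -0.43 to 0.51 for Myh4, -0.24 to 0.091 for Tnnt3, -0.21 to 0.063 for Tnni2 and -0.21 to 0.046 for Atp2a1. The difference of E47KO minus WT in the share of heavy chains ran from -3.16 to 4.78 percentage points for Myh1, -0.854 to 2.30 for Myh2, -7.21 to 4.32 for Myh4 and -0.304 to 0.120 for Myh7, and that of the log2 slow-to-fast ratio from -1.96 to 1.52 for troponin T, -2.28 to 1.26 for troponin I and -1.26 to 1.21 for the pump. Atp2a2 ran from -0.056 to 0.10 in WAT, -0.014 to 0.29 after Cort and -0.059 to 0.14 in untreated liver, and between WAT and liver Tnnt3 from -0.19 to 0.44 and Tnni1, on 5 counts or fewer per WAT library, from -1.99 to 1.55 as fitted. The cause was not tested. Of the 10 genes, 9 to 10 passed between muscle and liver (10, with Atp2a2, without WT muscle replicate 1), 9 to 10 between muscle and WAT and 2 to 3 between WAT and liver. Between muscle and WAT, Atp2a2 lost its call with library totals (0.50), with the replicate block (1.00) and on leaving out any of the 4 WAT libraries, E47KO muscle replicate 1 or 2 or WT muscle replicate 1. Between WAT and liver, Myh4 gained one with library totals (1.63) and without E47KO liver replicate 1 (1.46), and Myh7, with 2 counts or fewer in any WAT library, did without the filter, with the block, in DESeq2 and without E47KO muscle replicate 3.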
